A study of Homo sapiens with 4 samples.

Results

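The genes described here encode the transforming growth factor beta (TGF-beta) ligands, their receptors and core partners: the ligands TGFB1, TGFB2 and TGFB3, the receptors TGFBR1 and TGFBR2, the latent binding proteins LTBP1 and LTBP2, the signal carrier SMAD3 and the induced matrix protein TGFBI. The 9 genes were listed by name and were all found among the 23004 gene names of the files. They were followed in BEAS-2B, a single immortalized human cell line from bronchial epithelium of the lung, whose libraries were made from total RNA. The 2 untreated libraries came from cells with no exposure, and the 2 formaldehyde libraries from cells kept in 100 µM formaldehyde for 48 h. The compound is named in the title of the series and the dose and time in its labels. The labels do not tell if replicates were separate cultures; p-values then rest only on how far these libraries differ, and that spread may be technical.

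TGF-beta is made as a precursor whose propeptide stays bound to the mature ligand and keeps it latent. Latent binding proteins such as LTBP1 tether this complex in the matrix, from where integrins or proteases release the ligand. The free ligand binds the type II receptor, which phosphorylates the type I receptor, and this in turn phosphorylates SMAD2 and SMAD3 to act in the nucleus with SMAD4. In airway epithelium the pathway is known for growth arrest, matrix production and epithelial-mesenchymal transition.

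Levels are given in FPKM (fragments mapped to a transcript, scaled to its length and to the depth of the library), taken from the authors' files and added up for each gene. Because it is scaled by length, levels can be compared between genes. Recovered depth was 14.2 to 26.5 M (mega) fragments per library. Of the epithelial markers KRT8 and KRT18 were abundant in every library (206 to 447 FPKM), whereas KRT5 and TP63, which mark basal cells, were listed at 0 throughout. CDH1 (E-cadherin) stayed under 1 FPKM, and the fibroblast markers COL1A1 and THY1 were abundant. The 13 epithelial markers found of 14 summed to 736 to 824 FPKM in the untreated and 1206 to 1401 FPKM in the formaldehyde libraries, with 3 of 6 tested separated upward (both formaldehyde libraries above both untreated ones; downward is the reverse), as were 16.2% of all genes tested. These 3 were KRT7 (191 and 140 FPKM untreated, 532 and 319 FPKM with formaldehyde), KRT8 and KRT18. The other tested ones overlapped, with EPCAM higher and KRT14 and KRT17 lower by log2 fold change. CDH1 and KRT19, under 1 FPKM and not tested, were separated downward. The 10 fibroblast markers summed to 445 to 803 FPKM and 285 to 442 FPKM, nearly all of it COL1A1, THY1 and PDGFRB, with DPT at 0 throughout. These 3 were the ones tested, and all 3 were lower by log2 fold change. COL1A1 was separated downward, as were 10.7% of all genes tested, while THY1 and PDGFRB overlapped. LUM and FAP, under 1 FPKM and not tested, were separated downward. The 8 endothelial markers summed to 0.510 to 1.86 FPKM per library, and the 8 leukocyte markers to 18.4 and 31.3 FPKM in untreated cells and 51.7 and 32.6 FPKM with formaldehyde, mostly CD68, with CD3E at 0. Of 3 leukocyte markers tested, CD68 and CORO1A were separated upward. CD14 went the other way and overlapped, at 3.75 and 12.0 FPKM in untreated cells and 1.77 and 6.23 FPKM with formaldehyde. In limma 0 of the 3 passed an adjusted p of 0.05, and 2 had an unadjusted p under 0.05, as had 2.76% of all genes tested. The 7 nuclear or small RNAs found of 10, listed as a sign of RNA quality, summed to 282 and 711 FPKM in untreated cells and 594 and 379 FPKM with formaldehyde. The part of these markers in the differences below was not tested.

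Libraries of a group differed among themselves. Untreated replicate 2 stood apart in CTGF, a matricellular gene that TGF-beta and mechanical cues induce, which was at 46.9 and 590 FPKM in the untreated and at 133 and 85.1 FPKM in the formaldehyde libraries, replicates 1 and 2 in turn. Formaldehyde replicate 1 stood apart in CDKN1A, the p53-induced cell cycle inhibitor, at 31.8 and 48.9 FPKM in untreated cells and at 355 and 49.5 FPKM with formaldehyde (both genes chosen after their values were seen). Values below are always given in that order of libraries. In bulk RNA, fewer cells of a type and less RNA per cell cannot be told apart.

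TGFB1 and TGFB2 differed in opposite directions between the groups, so the sequences just before their start sites are shown for comparison. These are the 250 bases upstream of the RefSeq start in GRCh38.p14, on the strand of the gene, TGFB2 at chr1:218345086-218345335 (plus strand) and TGFB1 at chr19:41353923-41354172 (minus strand). Capitals mark matches, on either strand, to the TATA box (TATAAA), E-box (CACGTG), cyclic AMP response element (TGACGTCA), its variant TGACGTG, GC box (GGGCGG), AP-1 site (TGANTCA) and SMAD palindrome (GTCTAGAC).
TGFB2: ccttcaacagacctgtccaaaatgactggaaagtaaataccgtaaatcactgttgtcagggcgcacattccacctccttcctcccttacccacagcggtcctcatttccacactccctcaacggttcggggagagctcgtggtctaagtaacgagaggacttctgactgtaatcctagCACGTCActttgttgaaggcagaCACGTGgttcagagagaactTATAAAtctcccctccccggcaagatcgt
TGFB1: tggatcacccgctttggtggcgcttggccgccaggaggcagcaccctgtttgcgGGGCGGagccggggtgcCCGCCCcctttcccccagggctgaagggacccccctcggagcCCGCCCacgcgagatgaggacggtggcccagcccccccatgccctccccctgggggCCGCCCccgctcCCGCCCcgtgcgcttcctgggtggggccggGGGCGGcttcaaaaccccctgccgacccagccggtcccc

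The windows shared no kind of match. The TGFB2 window, 50.4% G or C, held 1 TATA box beginning 29 bases before the start, 1 E-box at 49 and 1 TGACGTG variant on the minus strand at 72. The TGFB1 window, 76.8% G or C, held 6 GC boxes and none of the others. Of 35116 promoter windows of this length in the table, 10.7% held a TATA box, 6.34% an E-box, 1.68% the TGACGTG variant and 42.6% a GC box. The full cyclic AMP element, the AP-1 site and the SMAD palindrome occurred in 1.65%, 6.57% and 0.182% of windows. TGACGTG and the E-box share the letters ACGTG and can overlap, which they do not in TGFB2. Windows of other members held such matches too. TGFB3, whose exposed libraries were the higher ones, had a TATA box and an E-box in separate windows. TGFBR1, lower with formaldehyde, had up to 6 GC boxes in a window, and TGFBR2, higher, had 2. A match of letters is a description and shows no binding, and its part in the direction of a gene was not tested.

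The comparison asks which of these genes respond to formaldehyde. TGFB2, the ligand of epithelial and developmental settings, had the largest difference of the 9 genes. It was at 15.2 and 24.0 FPKM in untreated cells and at 7.57 and 9.98 FPKM with formaldehyde, so that both exposed libraries lay below both untreated ones. The means were 19.6 ± 6.26 and 8.78 ± 1.71 FPKM (SD, n = 2 each), 2.23-fold lower with formaldehyde. The log2 fold change on log2(FPKM + 1), a scale that understates changes of low genes, was -1.05 ± 0.29 (SE, 95% interval -1.81 to -0.29). The unadjusted p was 0.0164 in limma, and the adjusted p over all genes was 0.9999, past no threshold. Of all 12407 genes tested, 2.76% had an unadjusted p under 0.05, and TGFB2 was the 1 such gene among the 8 members tested.

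TGFB1, the most widely expressed ligand, was at 24.3 and 34.7 FPKM in untreated cells and at 36.0 and 46.9 FPKM with formaldehyde. The exposed libraries were the higher ones, but only just: the lowest exposed library stood 1.04-fold above the highest untreated one. The authors' intervals for these libraries, 33.7 to 38.2 and 33.0 to 36.3 FPKM, overlapped. The means were 29.5 ± 7.32 and 41.5 ± 7.75 FPKM (SD, n = 2 each), a log2 fold change of 0.49 ± 0.27 (SE; adjusted p = 0.9999 in limma). Without untreated replicate 1 the log2 value was 0.24. TGFB1 has 1 transcript, and 815 to 2082 fragments per library gave it a counting error of 4.38% to 7.01%.

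TGFB3, the ligand best known from palate and lung development, was close to silent. Its levels were 0.200 and 0.254 FPKM in untreated cells and 0.354 and 0.363 FPKM with formaldehyde. The exposed libraries were again the higher ones, from 10 to 24 fragments per library, with a counting error of 40.8% to 63.2%. The difference was therefore not detectable at this depth. With a mean under 1 FPKM it was the 1 member left out of the test.

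**Figure D1:**
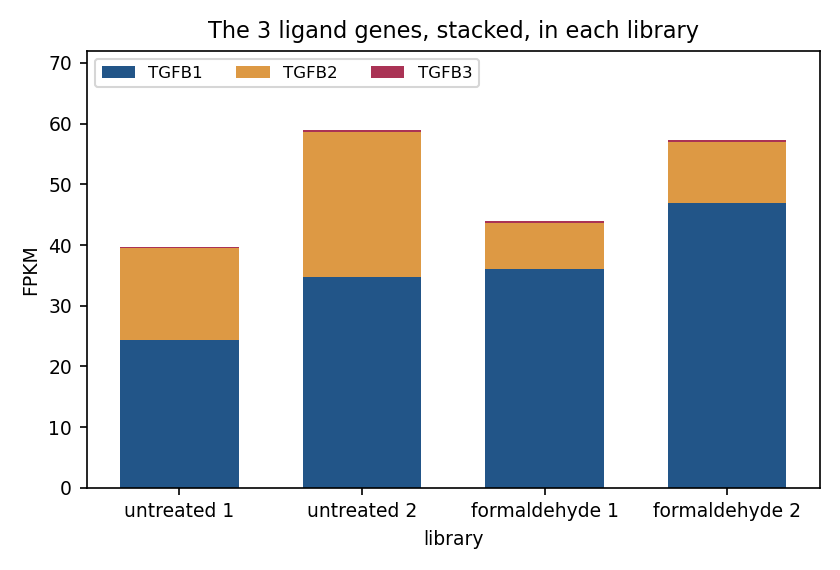
Stacked FPKM of TGFB1, TGFB2 and TGFB3 (y axis) in each of the 4 libraries (x axis), 1 bar per library with no error bar. The TGFB2 segment takes 38.2% and 40.8% of the untreated bars and 17.2% and 17.4% of the formaldehyde bars, while the bars' heights overlap between the groups.

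Within a library the ratio of the ligands was steadier than their levels. TGFB2 stood at 0.624 and 0.693 of TGFB1 in the untreated libraries and at 0.210 and 0.213 with formaldehyde. The ratio was thus 3.12-fold lower with formaldehyde, with means of 0.659 ± 0.0488 and 0.211 ± 0.00166 (SD, n = 2 each). TGFB2 made up 39.5% ± 1.79 of the FPKM of the 3 ligand genes untreated and 17.3% ± 0.134 with formaldehyde (SD, n = 2 each). TGFB1 made up 61.3% and 58.8% untreated and 82.0% and 81.9% with formaldehyde, and TGFB3 under 1% throughout. The summed level of the ligand genes was 39.7 and 58.9 FPKM in untreated cells and 43.9 and 57.3 FPKM with formaldehyde, so the groups overlapped there. A ratio within a library does not depend on the scaling between libraries. The ratio of TGFB2 to TGFB1 was chosen after its values were seen, and an exact two-sided permutation test of 2 against 2 libraries gave the smallest p it allows, 0.333. As both genes were separated in opposite directions, their ratio could only separate, so this p adds nothing to their own values.

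The 2 transcripts of TGFB2 differ in 1 exon of 84 nt, which NM_001135599 holds and NM_003238 lacks, a multiple of 3 in length (chromosome 1, 218536676 to 218536759, hg19, exon 2 of 8). It is shown because the share of TGFB2 RNA with it can be read from the files, its letters taken from the matching GENCODE transcript.
TGFB2 exon 2 of NM_001135599: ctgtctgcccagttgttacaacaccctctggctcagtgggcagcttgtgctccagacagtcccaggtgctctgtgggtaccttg
The form without it made up 89.8% and 93.0% of TGFB2 untreated and 88.9% and 92.3% with formaldehyde. The groups overlapped in this share. With formaldehyde the authors' interval for NM_003238 was wide, 2.32 to 11.1 FPKM in replicate 1 and 6.79 to 11.6 FPKM in replicate 2, against 12.8 to 14.4 and 21.5 to 23.1 FPKM untreated.

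The receptor genes differed in opposite directions as well. TGFBR2, the type II receptor that binds the ligand first, was at 10.9 and 8.19 FPKM in untreated cells and at 19.2 and 11.7 FPKM with formaldehyde. Both exposed libraries were higher, replicate 1 by far the most and replicate 2 by 1.07-fold over the highest untreated library. The means were 9.57 ± 1.95 and 15.4 ± 5.31 FPKM (SD, n = 2 each), a log2 fold change of 0.61 ± 0.31 (SE; adjusted p = 0.9999 in limma). Without formaldehyde replicate 1 the log2 fold change was 0.28.

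TGFBR1, the type I receptor kinase that phosphorylates SMAD2 and SMAD3, was at 8.47 and 6.45 FPKM in untreated cells and at 5.65 and 4.78 FPKM with formaldehyde. Both exposed libraries were the lower ones. The means were 7.46 ± 1.43 and 5.22 ± 0.615 FPKM (SD, n = 2 each), a log2 fold change of -0.44 ± 0.23 (SE; adjusted p = 0.9999 in limma). Without untreated replicate 1 the log2 fold change was -0.27. Practically all of TGFBR1 was assigned to 1 transcript, NM_004612.

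TGFBR2 RNA stood at 1.29 and 1.27 times TGFBR1 untreated and at 3.40 and 2.44 times with formaldehyde. The mean ratio was 1.28 ± 0.0166 untreated and 2.92 ± 0.674 with formaldehyde (SD, n = 2 each), 2.28-fold higher. The groups did not overlap in it (exact two-sided permutation p = 0.333, the smallest possible). As both genes were separated in opposite directions, their ratio could only separate, so this adds nothing to their own values. Like the ligand ratio, the receptor ratio was chosen after its values were seen. The summed level of both receptors overlapped between the groups, at 19.4 and 14.6 FPKM in untreated cells and 24.8 and 16.5 FPKM with formaldehyde.

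TGFBR2 also has 2 transcripts, set apart by an exon of 75 nt that NM_001024847 holds and NM_003242 lacks (chromosome 3, 30664691 to 30664765, hg19, exon 2 of 8). It is printed because the difference of TGFBR2 lay mostly in the form without it.
TGFBR2 exon 2 of NM_001024847: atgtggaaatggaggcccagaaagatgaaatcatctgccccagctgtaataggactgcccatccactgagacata
The form without the exon was at 7.33 and 4.13 FPKM in untreated cells and at 14.6 and 9.65 FPKM with formaldehyde, both exposed libraries being higher. The form with it was at 3.62 and 4.06 FPKM in untreated cells and at 4.55 and 2.03 FPKM with formaldehyde, where the groups overlapped. The form without the exon took 67.0% and 50.4% of TGFBR2 untreated and 76.3% and 82.6% with formaldehyde (58.7% ± 11.7 and 79.5% ± 4.45, SD, n = 2 each, exact permutation p = 0.333). The shares of the main forms of TGFB2 and SMAD3 overlapped between the groups. How often such a share separates over all genes was not computed. With the highest transcript in place of the sum, the log2 fold change of TGFBR2 became 0.98 (limma unadjusted p = 0.0370, adjusted p = 0.9999). Over all alternatives run for TGFBR2 the limma adjusted p ran from 0.580 to 1. The split between forms is an estimate of the authors' software, which assigned the reads that both share.

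**Figure D2:**
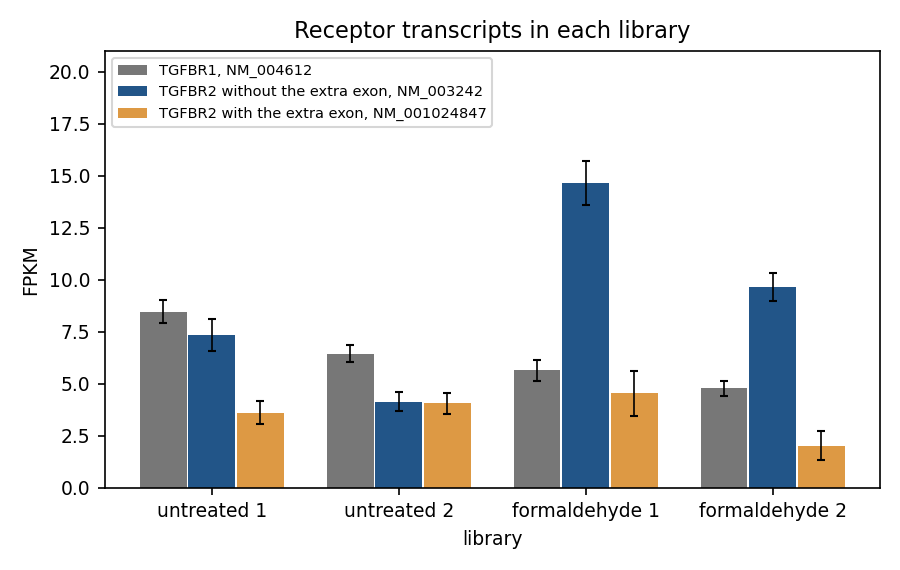
FPKM (y axis) of the main TGFBR1 transcript and of the TGFBR2 transcripts without and with the extra exon in each library (x axis), with the authors' deposited intervals as error bars. The TGFBR2 form without the exon stands at 14.6 and 9.65 FPKM with formaldehyde, above 7.33 and 4.13 FPKM untreated, while TGFBR1 is lower in both formaldehyde libraries.

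SMAD3, which carries the signal to DNA, overlapped between the groups. It was at 26.7 and 22.7 FPKM in untreated cells and at 23.7 and 33.5 FPKM after exposure, with a log2 fold change of 0.19 ± 0.25 (SE; adjusted p = 0.9999 in limma; 95% interval -0.46 to 0.83). Its full-length transcript, NM_005902, took 78.0% and 95.8% untreated and 73.0% and 88.9% with formaldehyde. Here the libraries numbered 2, the deeper ones, were the high ones in both groups. Most of the rest went to NM_001145102, which starts further downstream (chromosome 15, 67418054 against 67358195, hg19).

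The latent binding proteins were low and varied widely within each group. LTBP1, which tethers the latent ligand to the matrix, was at 0.530 and 2.38 FPKM in untreated cells and at 0.345 and 1.03 FPKM with formaldehyde, so the replicates of a group differed more than the groups. The libraries numbered 2, which are also the deeper ones, were the high ones in both groups. The part of depth in this was not tested. Its log2 fold change was -0.46 ± 0.47, and its long form, NM_206943, held 71.1% to 100% of each library's LTBP1.

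LTBP2, a matrix protein of the same family that associates with fibrillin, was at 0.610 and 1.21 FPKM in untreated cells and at 1.63 and 0.744 FPKM with formaldehyde. Its groups overlapped, with a log2 fold change of 0.18 ± 0.33. From 86 to 268 fragments per library gave it a counting error of 12.2% to 21.6% (SE for both log2 values, limma adjusted p = 0.9999 for both).

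TGFBI, a secreted matrix protein named for its induction by TGF-beta, was the most abundant of the 9 genes. It was at 75.3 and 114 FPKM in untreated cells and at 82.7 and 81.6 FPKM with formaldehyde. The formaldehyde libraries both lay between the untreated ones. The log2 fold change was -0.17 ± 0.27 (SE; adjusted p = 0.9999 in limma; 95% interval -0.88 to 0.53), and without untreated replicate 2 it was 0.12. With 3059 to 7880 fragments its counting error was 2.25% to 3.62%, well under the gap between the untreated libraries.

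**Figure D3:**
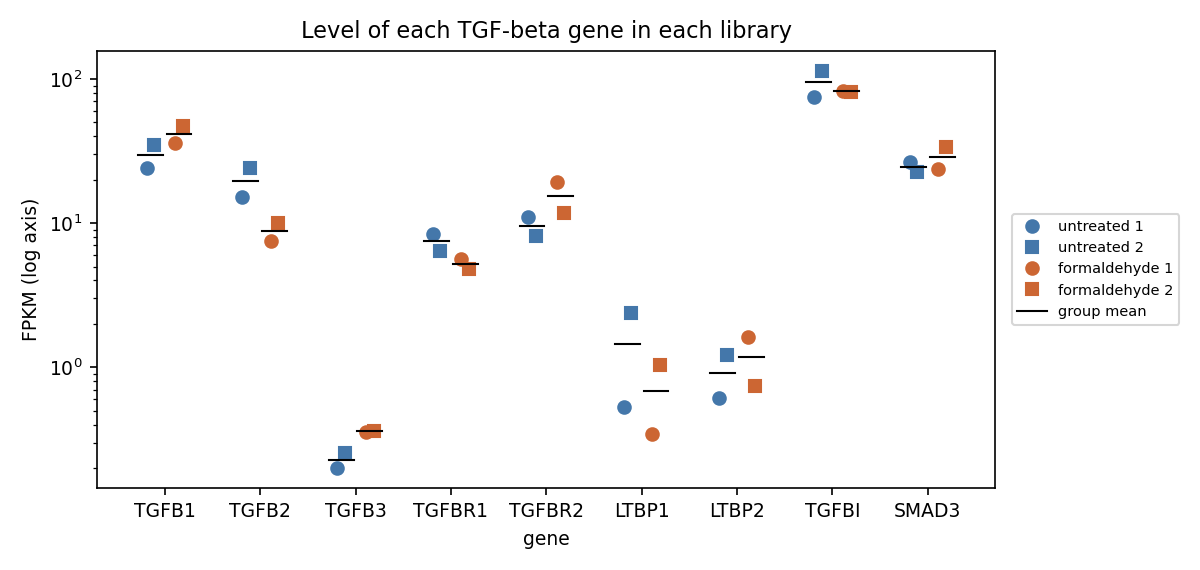
FPKM on a log axis (y) of the 9 genes (x) in each library, blue untreated and orange formaldehyde, circles replicate 1 and squares replicate 2, with black lines at the group means. TGFB2 and TGFBR1 have both orange points below both blue ones, TGFB1, TGFB3 and TGFBR2 the reverse, and the others overlap.

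The order of levels differed between the groups in the middle of the range. LTBP1 and LTBP2, whose libraries overlapped in both groups, also changed places at the low end. In untreated cells TGFBI stood highest, followed by TGFB1, SMAD3 and TGFB2, then TGFBR2 and TGFBR1, then LTBP1, LTBP2 and TGFB3. Among untreated neighbours, TGFB1 and SMAD3, SMAD3 and TGFB2, TGFBR2 and TGFBR1, and LTBP1 and LTBP2 did not differ beyond the range of their libraries. With formaldehyde TGFBR2 stood above TGFB2, with 15.4 ± 5.31 against 8.78 ± 1.71 FPKM (SD, n = 2 each), and their libraries did not overlap. There the low neighbours alone overlapped, LTBP2 with LTBP1 and LTBP1 with TGFB3.

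Over the members tested, 0 of 8 passed an adjusted p of 0.05 in limma, where 0.153% of all genes did (0.0806% higher and 0.0725% lower). That share rests mostly on the 19 genes of the main fit, short ones included. With only genes of at least 300 nt, as all members are, 1 gene passed. Of the 8 members, 1 had an unadjusted p under 0.05 in limma. Both formaldehyde libraries lay above both untreated ones in 2 of 8 and below them in 2 of 8, against 16.2% and 10.7% of all genes and 26.9% in either direction. The median log2 fold change of the 8 was 0.00, and that of all genes tested was 0.03. As many members were higher as were lower, 4 and 4. The libraries of 2 groups of 2 allow no exact permutation p under 0.333 for any single gene.

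**Figure D4:**
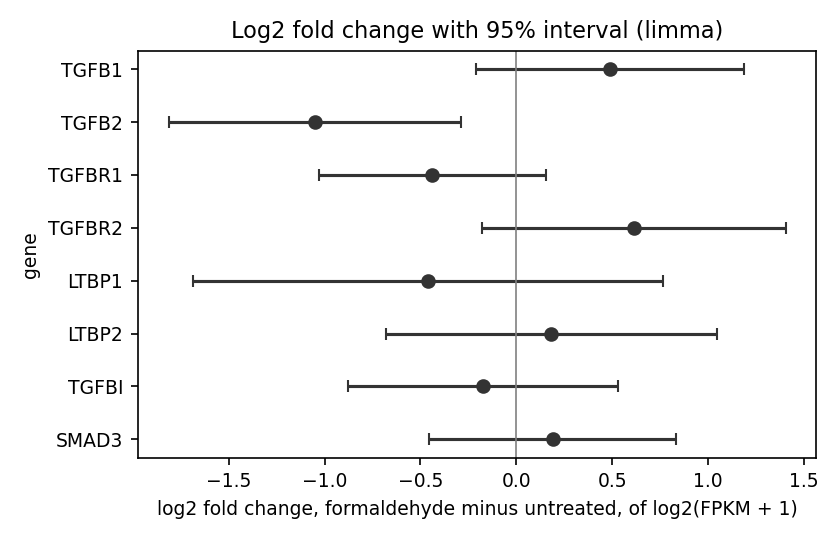
Log2 fold change of log2(FPKM + 1), formaldehyde minus untreated (x axis), for the 8 tested genes (y axis), points with 95% intervals from limma, 2 libraries per group. The interval of TGFB2, -1.81 to -0.29, lies below 0, and the other 7 cross it; none is adjusted for the number of genes.

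The genes whose levels ran most like a member over the 4 libraries were ranked by Pearson's r of log2(FPKM + 1), a description over 4 points that share their libraries. For TGFB2 they were SELENBP1 (r = 0.999), a selenium-binding protein, at 8.65, 10.3, 6.37 and 7.14 FPKM, and ANKLE2 (r = 0.999) at 38.0, 43.3, 30.2 and 33.1 FPKM. For TGFBR2 they were INPP1 (r = 0.9997), an inositol phosphatase, and TLDC1 (r = 0.9996), and for LTBP1 ICAM5 (r = 0.999) is given. Of about 4835 genes compared, 13 exceeded 0.99 with TGFB2, 57 with TGFBR2 and 59 with LTBP1. The other members spanned less than 1 log2 unit and were not ranked.

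Genes that store and release the latent ligand were mixed. Of 24 listed, 15 were tested, 5 were higher and 10 lower with formaldehyde, and 0 passed in either direction (limma adjusted p = 0.9999 at the lowest). The median log2 fold change was -0.31, against 0.03 for all genes. FBN1, the fibrillin that anchors latent complexes, was at 17.4 and 17.6 FPKM in untreated cells and 12.6 and 12.4 FPKM with formaldehyde. FBN2 was at 40.5 and 50.1 against 31.7 and 25.1 FPKM, so both fibrillins had the exposed libraries below the untreated ones. PLAT, the tissue plasminogen activator, was at 8.30 and 15.8 against 30.5 and 18.8 FPKM. ITGB5, the integrin subunit that pairs with the alpha V chain to release the ligand, was at 14.2 and 22.8 against 27.5 and 28.1 FPKM. For PLAT and ITGB5 the exposed libraries were the higher ones, and of the 15 tested genes 4 were separated upward and 2 downward, where 16.2% and 10.7% of all genes were.

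The co-receptors and related receptors held 7 tested genes of 14, with 2 higher, 5 lower, 0 passing and a median of -0.02. ENG (endoglin), a co-receptor that binds TGF-beta together with the type II receptor, was at 29.5 and 31.9 FPKM in untreated cells and 65.6 and 43.8 FPKM with formaldehyde. BAMBI, a decoy receptor without a kinase, was at 14.0 and 21.1 against 8.19 and 11.1 FPKM. Of the 7 tested genes these were the 2 whose groups did not overlap, ENG upward and BAMBI downward. Over all genes 16.2% were separated upward and 10.7% downward, 26.9% in either direction. TGFBRAP1, a receptor-associated protein, and BMPR1A, a type I receptor for bone morphogenetic proteins, overlapped, at 14.5 ± 4.26 and 18.5 ± 3.41 FPKM and at 7.41 ± 2.16 and 6.60 ± 0.316 FPKM (SD, n = 2 each).

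Among the SMADs and their regulators 25 of 28 were tested, 15 higher and 10 lower, with 0 passing and a median of 0.07. SMAD6, an inhibitory SMAD, was at 9.43 and 6.49 FPKM in untreated cells and at 2.19 and 4.23 FPKM with formaldehyde. SMURF2, a ubiquitin ligase that targets the receptors and SMADs, was at 16.4 and 11.8 against 55.5 and 23.2 FPKM. NEDD4L, a ubiquitin ligase of the same family, was at 11.9 and 9.58 against 27.5 and 15.8 FPKM. Their groups did not overlap, but formaldehyde replicate 1 stood well above replicate 2 for both ligases and below it for SMAD6. ZFYVE9 (SARA), which presents SMADs to the receptor, was at 8.80 ± 1.67 and 11.5 ± 1.31 FPKM (SD, n = 2 each), higher in both exposed libraries. SMAD2 and SMAD4, the partners of SMAD3, overlapped at 6.16 ± 2.02 and 6.42 ± 1.02 FPKM and at 8.01 ± 2.51 and 7.11 ± 0.590 FPKM (SD, n = 2 each; chosen after their values were seen). Of the 25 tested genes 4 were separated upward and 3 downward, close to the 16.2% and 10.7% of all genes.

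Genes known to be induced by TGF-beta did not share a direction either. Of 46 listed, 39 were tested, 20 were higher and 19 lower, 0 passed, and the median was 0.05. IL11, a cytokine of the interleukin-6 family, was at 9.05 and 6.17 FPKM in untreated cells and at 63.2 and 25.1 FPKM with formaldehyde. SPHK1, the sphingosine kinase, was at 14.6 and 15.4 against 47.3 and 20.6 FPKM. CDKN2B, the inhibitor of cyclin-dependent kinases that TGF-beta uses for growth arrest, was at 28.3 and 32.7 against 6.01 and 17.0 FPKM. COL5A1, a fibrillar collagen, was at 10.4 and 22.0 against 8.22 and 7.23 FPKM.

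The exposed libraries were thus above the untreated ones for IL11 and SPHK1 and below them for CDKN2B and COL5A1, and of the 39 tested genes 10 were separated upward and 4 downward, beside 16.2% and 10.7% of all genes. Formaldehyde replicate 1, which stands apart in CDKN1A, was the more extreme of the exposed libraries for IL11, SPHK1 and CDKN2B. SMAD7, the feedback inhibitor, overlapped at 3.39 and 3.89 against 5.25 and 3.64 FPKM (chosen after its values were seen). The part of the high CDKN1A of formaldehyde replicate 1 in these values was not tested. SMAD7, SKIL, PMEPA1 and TGIF1 belong to this list and the one before, and THBS1 and ITGB6 to this list and that of latent complexes.

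Other ligands of the superfamily were mostly silent, with 15 of 22 under 1 FPKM in every library. Of 5 tested, 2 were higher and 3 lower, 0 passed, and the median was -0.09. BMP4, a ligand of the BMP branch, was at 16.3 and 18.2 FPKM in untreated cells and at 7.60 and 11.7 FPKM with formaldehyde. Of the 5 tested genes it was the 1 separated downward and 0 were separated upward, where 10.7% and 16.2% of all genes were. GDF15, a stress-induced ligand and p53 target, was at 1.85 and 2.43 against 42.1 and 2.30 FPKM, a difference that formaldehyde replicate 1 alone carried. AMH and INHBE overlapped, at 28.2 ± 20.5 and 20.2 ± 3.26 FPKM and at 0.947 ± 1.04 and 1.27 ± 0.845 FPKM (SD, n = 2 each).

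**Figure D5:**
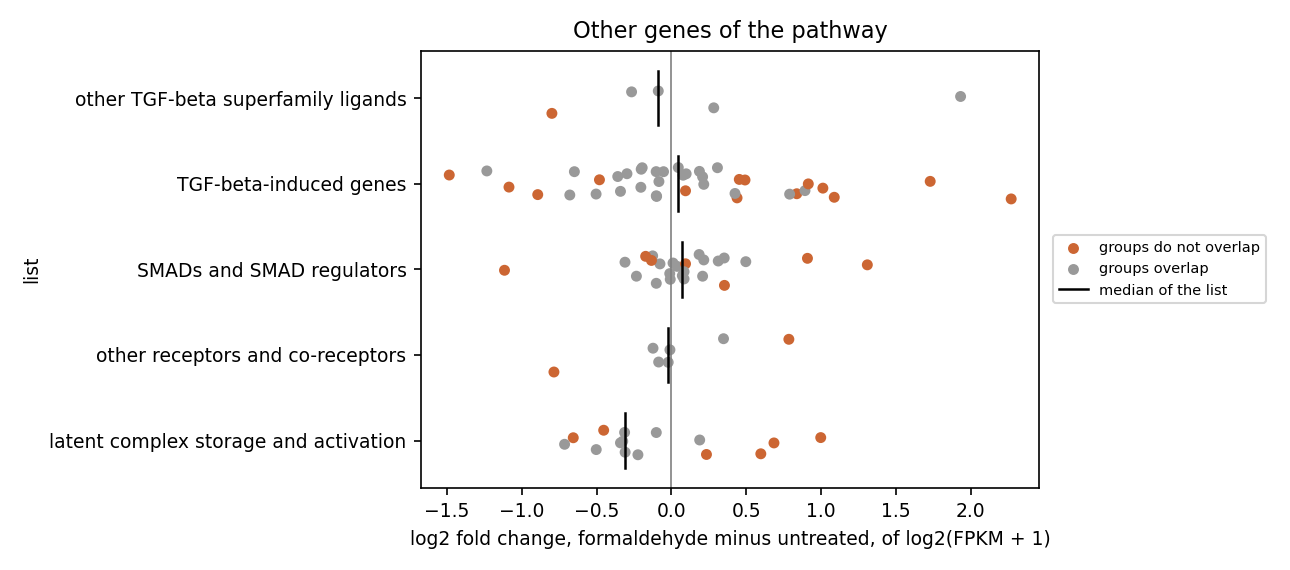
Log2 fold change of log2(FPKM + 1), formaldehyde minus untreated (x axis), of the tested genes of 5 lists (y axis), 1 point per gene with vertical jitter, orange where the groups do not overlap, and a black line at each list's median. The medians lie from -0.31 to 0.07, and no gene shown passed the adjusted test.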

How the data were processed

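Per the submitters' processing notes the tools were FastQC 0.10.0, STAR 2.5.2 and Cufflinks 2.0.2 on hg19 and GRCh37. How reads were trimmed or assigned to strands is not stated by the labels. Each library's file lists 40255 transcripts with FPKM by the authors, per the file attributes, and was matched to its sample by the title. FPKM were summed per gene name, leaving out 894 unnamed transcripts. No other named gene overlapped a member. Fragment numbers came from the deposited interval bounds (upper bound = FPKM × (1 + 2/√fragments)) and cover counting error only; depth used a read length of 51 nt. Genes with a mean of at least 1 FPKM (12407) entered a limma 3.58.1 fit of log2(FPKM + 1) values (R 4.3.3, mean trend, two-sided, Benjamini-Hochberg over all genes, threshold 0.05). The fit was first run on simulated data, whose added changes were larger than the difference of means of any member. That check therefore does not tell how often changes of the members' size are found. Named genes were all members, up to 4 per list with the largest moderated t, and the 2 genes most like a member that spans at least 1 log2 unit, among genes of at least 5 FPKM. Some genes that these rules or lists hold are not reported here. Members and lists were chosen with earlier results of these data known. Alternatives were another pseudocount, filters, scalings, the highest transcript, genes of at least 300 nt, the replicate number as a block and each library left out. Figures used matplotlib 3.10.9.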

Additional observations from a re-analysis of the deposited data

How the results depend on the processing

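Precision was limited by 2 libraries per group and, for TGFB3 and LTBP2, by few fragments. No member and no gene of the 5 pathway lists passed under any alternative that kept all 4 libraries, among them the replicate block. Replicate numbers are not stated to pair samples (deviations correlated at 0.253); under the replicate block 29 genes passed in place of 19 over all genes, and TGFB2 had the lowest adjusted p of the members, 0.315. Over all genes 0 passed with no filter (limma, 652 with an unadjusted p under 0.05), 1 with genes of at least 300 nt, and 31 to 55 with a library left out. Of 94 recomputed member values 89 kept their direction. The others turned: LTBP1 to 0.11 and TGFBI to 0.12 without untreated replicate 2, LTBP2 to -0.05 without untreated replicate 1 and to -0.11 without formaldehyde replicate 1, and SMAD3 to -0.053 without formaldehyde replicate 2. With each library left out in turn the ranges were -1.03 to 0.11 for LTBP1, -0.11 to 0.48 for LTBP2, -0.47 to 0.12 for TGFBI and -0.053 to 0.43 for SMAD3. LTBP1 and LTBP2 have no value with a minimum of 5 FPKM. Over all alternatives TGFB2 ran from -1.37 to -0.74, TGFB1 from 0.24 to 0.73 and TGFBR1 from -0.61 to -0.27. TGFBR2 ran from 0.28 to 0.98, the latter from the highest transcript. In alternatives added after seeing the data, the log2 difference of the TGFB2 to TGFB1 ratio was -1.64, and -1.71 to -1.56 with a library left out. That of TGFBR2 to TGFBR1 was 1.17, 0.93 to 1.41 with a library left out, and 1.62 from the highest transcript alone. Members separated between the groups numbered 4, and 5 to 7 with a library left out, where 50.4% to 75.1% of all genes separate. The cause of these shifts was not tested.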
